A study of Ovis aries with 6 samples.

Results

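SOD2, SGK3, BCL2L1 and AKT1 are 4 genes tied to a signalling route that keeps cells alive, and their array signals are described here in skin from the body side of 3 Aohan fine wool sheep, against that of 3 small tail Han sheep. The genes were chosen by their place in the study's pathway drawings and by measured differences between these same breeds, so their values are a description and no test is given for them. They were read at 5 probes of the 15008 on the array: 1 probe each for SOD2 (A_70_P067986), SGK3 (A_70_P031931) and AKT1 (A_70_P020786), and both probes that carry the sheep RefSeq mRNA of BCL2L1 (A_70_P012561 and A_70_P012562). The array names 476 gene symbols through RefSeq accessions, BCL2L1 and AKT1 among them. SOD2 and SGK3 are named through the study's annotation of their probes, whose accessions in the scanner files are not RefSeq mRNAs. A further probe, A_70_P067987, carries the same accession as the SOD2 probe and is shown beside it as SOD2's second probe.

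The skin came from Aohan fine wool sheep, a Chinese fine wool breed, and from small tail Han sheep, a breed with coarse wool, all 12 months old. Each breed had 1 ram and 2 ewes. Which of them was the ram is not labelled, so sex could not enter any comparison. Full-thickness pieces of about 1 cm2 were taken under local anaesthesia, and RNA of each animal was labelled with Cy3, a fluorescent dye, and hybridised to its own 1-colour Agilent sheep array (n = 3 per breed, separate animals). The sheep of a breed shared 1 sire, and each breed's arrays had a separate scan session, so breed, sire family and scan session cannot be told apart. In whole skin, fewer cells of a type and less RNA per cell cannot be told apart either.

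In mammals, growth factors, cytokines and integrins at the cell surface switch on PI3-kinase. Lipid products of PI3-kinases bring the kinases AKT1 and SGK3 to membranes, where they are activated. AKT1 phosphorylates proteins that drive growth and hold back cell death. SGK3 belongs to a kinase family related to AKT, binds endosomes through a lipid-binding domain, and in mice is needed for normal postnatal hair growth. Both kinases can phosphorylate FOXO transcription factors and keep them out of the nucleus. SOD2, the manganese superoxide dismutase of mitochondria, turns superoxide into hydrogen peroxide, and its gene is a known target of FOXO factors and of NF-kB. BCL2L1 encodes BCL-XL, a BCL2 family protein that guards the mitochondrial membrane against the pore-forming proteins of apoptosis, and STAT and NF-kB factors can raise its transcription.

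Levels are log2 Cy3 signals relative to the 75th percentile of the array, so that 0 is the signal below which 75% of probes lie. That percentile was 1103, 2048 and 1131 intensity units for Aohan sheep 1 to 3, and 2309, 1837 and 1747 for small tail Han sheep 1 to 3. Between 10734 and 13387 probes were well above background on arrays of Aohan sheep and between 11055 and 12963 on those of small tail Han sheep, with no saturated spot on any. Defining skin markers were bright. The wool keratins KRT25, KRT27 and KRT35 summed to 436 to 821 times the 75th percentile in Aohan skin and 527 to 756 times in small tail Han skin. SFN, a keratinocyte gene, read 170 to 293 times the 75th percentile in Aohan skin and 196 to 247 times in small tail Han skin. The 3 wool keratins and SFN differed by -0.10 to 0.08 on the log2 scale and did not pass. The number of arrays limits the precision of every value below.

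SOD2 had the highest signal difference of the 4 genes. At A_70_P067986 its log2 signals were -0.34, 0.20 and -0.17 in Aohan sheep 1 to 3, against -1.61, -2.12 and -1.85 in small tail Han sheep 1 to 3. All Aohan values lay above all small tail Han values, and the lowest Aohan value stood 1.27 above the highest small tail Han value. The means were -0.10 ± 0.28 in Aohan skin and -1.86 ± 0.25 in small tail Han skin (SD, n = 3 each), a log2 difference of 1.76 (SE 0.20) or 3.39-fold. In unscaled intensity the spot read 872, 2359 and 1008 for Aohan sheep and 754, 422 and 485 for small tail Han sheep, and it was well above background on all 6. Of all 12480 tested probes, 113 (0.905%) had a higher Aohan over small tail Han difference.

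The second SOD2 probe lies elsewhere on the array and gave the same order of the breeds with more spread. A_70_P067987 read -0.85, 0.19 and -0.35 in Aohan sheep, against -1.62, -2.12 and -1.96 in small tail Han sheep. The breeds again did not overlap, with a gap of 0.77, and Aohan sheep 1 was the low value of its breed. The difference was 1.56 (SE 0.26), or 2.95-fold. The probe shares its target with A_70_P067986 and was read from the same RNA, so it repeats the measurement of the transcript but adds no animal. Over the 6 arrays both probes had an r of 0.98.

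SGK3, the kinase that acts in parallel to AKT1, was the other gene whose breeds did not overlap. A_70_P031931 read -0.36, -0.18 and -0.36 in Aohan sheep and -0.97, -1.35 and -1.33 in small tail Han sheep. Aohan sheep varied little, with a mean of -0.30 ± 0.10, against -1.21 ± 0.21 in small tail Han sheep (SD, n = 3 each). Small tail Han sheep 1 stood above the other sheep of its breed and 0.61 below the lowest Aohan sheep. The difference was 0.92 (SE 0.16), or 1.89-fold, and it changed with 1 processing step described below.

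BCL2L1, the gene of the anti-apoptotic BCL-XL, was dim. A_70_P012561 read -3.69, -3.80 and -4.19 in Aohan sheep and -4.01, -5.31 and -5.29 in small tail Han sheep. Small tail Han sheep 1 lay inside the Aohan range and the others of its breed lay more than 1 log2 unit below every Aohan sheep, so the breeds overlapped. The means were -3.89 ± 0.26 in Aohan skin and -4.87 ± 0.75 in small tail Han skin (SD, n = 3 each), a difference of 0.98 (SE 0.37). At A_70_P012562 the signals were -4.77, -4.13 and -4.65 in Aohan sheep, against -4.19, -5.54 and -5.29 in small tail Han sheep. There the highest small tail Han sheep exceeded 2 of the 3 Aohan sheep, and the difference was 0.49 (SE 0.39).

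Both BCL2L1 probes sat close to background. They were well above background on all 3 Aohan arrays but on 2 of the 3 small tail Han arrays, sheep 2 being the exception. The scanner's own error for the spot reached 25.7% at A_70_P012561 and 29.6% at A_70_P012562 on that array. The size of the difference moved with single animals. Without small tail Han sheep 1 it was 1.41 at A_70_P012561 and 0.90 at A_70_P012562. At A_70_P012562 it was 0.22 without small tail Han sheep 2 and 0.30 without Aohan sheep 2.

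AKT1, the central kinase of the route, differed by less than the spread between sheep. A_70_P020786 read -3.31, -2.82 and -3.23 in Aohan sheep and -3.12, -3.50 and -3.14 in small tail Han sheep. The highest value was an Aohan sheep and the lowest a small tail Han sheep, and the other 4 animals lay between -3.31 and -3.12, both Aohan sheep below both small tail Han sheep. Means of -3.12 ± 0.26 in Aohan skin and -3.25 ± 0.22 in small tail Han skin (SD, n = 3 each) gave a difference of 0.13 (SE 0.21). Of all tested probes, 40.5% had a higher difference.

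**Figure D1:**
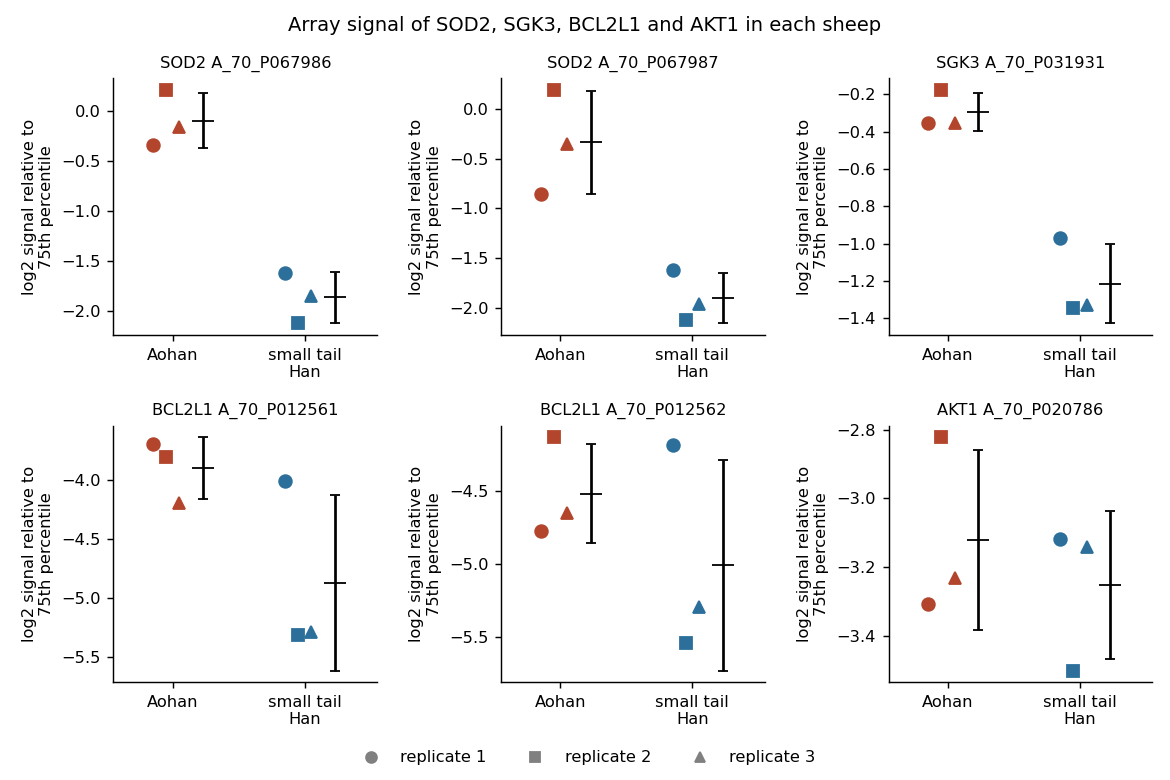
Log2 signal relative to the array's 75th percentile (vertical axes, each with its own range) at the 6 probes of SOD2, SGK3, BCL2L1 and AKT1, with Aohan sheep left of small tail Han sheep. Coloured symbols are single animals by replicate number and black bars are mean and SD (n = 3). Breeds are separate for SOD2 and SGK3, by gaps of 1.27, 0.77 and 0.61, and overlap for BCL2L1 and AKT1.

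Among all tested probes, 945 were higher in Aohan skin at a limma adjusted p under 0.05 (7.57%) and 948 were lower (7.6%), and 2220 (17.8%) had all Aohan sheep above all small tail Han sheep. Of the 5 probes that define the 4 genes, 2 had all Aohan sheep above all small tail Han sheep, those of SOD2 and SGK3. These genes were selected on this contrast, so nothing is read from that share. The median difference over all tested probes was 0.02.

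**Figure D2:**
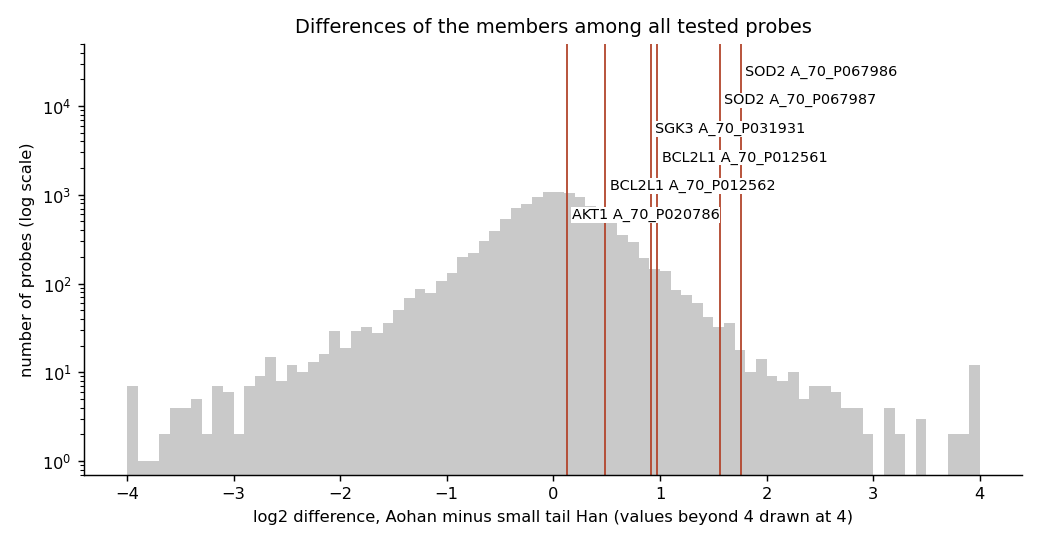
Number of tested probes (vertical axis, log scale) by log2 difference, Aohan minus small tail Han (horizontal axis, values beyond 4 drawn at 4), for all 12480 tested probes in grey. Red lines mark the 6 probes shown, which run in order of difference from AKT1 at 0.13 to SOD2 at 1.76.

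The animals kept a similar order within a breed at the different genes. Small tail Han sheep 1 had the highest signal of its breed at all 6 probes and small tail Han sheep 2 the lowest at all 6. Over all tested probes with a value on each array of the breed, sheep 1 was highest at 32.6% and sheep 2 lowest at 30.4%. Aohan sheep 2 was the highest of its breed at 5 of the 6 probes, against 33.4% of all probes, and Aohan sheep 1 at the other, A_70_P012561. Without the surface correction described below, small tail Han sheep 1 was highest at 4 of the 6 probes and lowest at 1, small tail Han sheep 2 was lowest at 5, and Aohan sheep 2 was highest at all 6. Both BCL2L1 probes and both SOD2 probes share a target and all 6 probes were read on the same arrays, so the 6 orders are not independent.

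A processing step of the scanner software differed between arrays and bears on these genes. Agilent Feature Extraction multiplied each spot by a surface correction, an estimate of uneven hybridisation across the slide, on the 3 Aohan arrays and on small tail Han array 1, but not on small tail Han arrays 2 and 3, where processed and background-subtracted signals were equal. At the SGK3 spot the factor was 1.73, 1.45 and 1.45 for Aohan sheep and 1.44, 1 and 1 for small tail Han sheep. Its spot lies in column 3 of the array, and the step added 0.41 to the SGK3 difference. Only 1.82% of tested probes moved further in that direction. The 5th and 95th percentiles of the shift over all tested probes were -0.27 and 0.37 around a median of -0.07.

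Without that factor the SGK3 signals were -1.11, -0.69 and -0.86 in Aohan sheep and -1.50, -1.35 and -1.33 in small tail Han sheep. Small tail Han sheep 1, whose array alone of its breed carried the factor, was then the lowest of its breed and no longer the highest. The breeds were still separate, by 0.22, and the difference was 0.50, against 0.92 with it. For SOD2 the difference was 1.55 and the breeds stayed separate at A_70_P067986, where the step had added 0.21. At the second SOD2 probe it was 1.22 with a gap of 0.17, and the factor on Aohan array 1 had been 1.93. SOD2 thus kept its direction and its separation at both probes.

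BCL2L1 and AKT1 moved with the step as well. BCL2L1 differed by 0.64 and 0.53 at its probes without the factor, and the breeds overlapped at both. AKT1 changed sign, to -0.18 against 0.13 with the factor, with signals of -3.73, -3.17 and -3.64 in Aohan sheep and -3.36, -3.50 and -3.14 in small tail Han sheep. No direction can therefore be given for AKT1. Within the 4 arrays that carry the factor, small tail Han sheep 1 alone stands for its breed, and the differences were 0.67 for SGK3 and 0.11 and -0.33 for the BCL2L1 probes. The presence of the factor goes with the breed on 5 of 6 arrays, and which signals are nearer to the RNA levels was not tested.

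**Figure D3:**
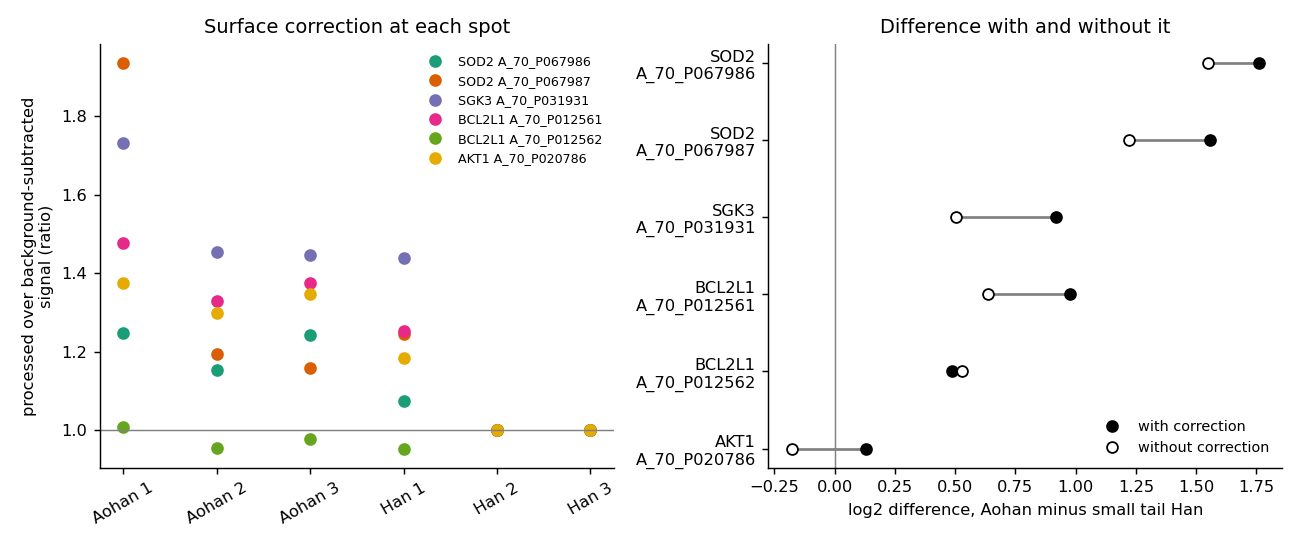
Left, ratio of processed to background-subtracted signal (vertical axis) at each probe's spot on the 6 arrays, Aohan arrays left of small tail Han arrays (Han); the ratio is 1 on small tail Han arrays 2 and 3. Right, log2 difference, Aohan minus small tail Han (horizontal axis), with the correction (filled) and without it (open). SGK3 has 0.92 with it and 0.50 without it, and AKT1 crosses 0.

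Other settings left SOD2 as the largest difference at every setting run. Its difference at A_70_P067986 ranged from 1.32 to 1.76 over the other processing settings and from 1.61 to 1.88 when single arrays were left out. SGK3 ranged from 0.39 to 0.92 and from 0.85 to 1.04, and stayed positive throughout. The low end, 0.39, came from normexp background correction. It starts from spot medians, so it also lacks the surface factor, and it adds an offset of 50. Which of these lowered the value was not tested. BCL2L1 stayed positive at A_70_P012561, with 0.11 to 0.99 and 0.75 to 1.41, but not at A_70_P012562. AKT1 lay between -0.18 and 0.23 over all of them.

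**Figure D4:**
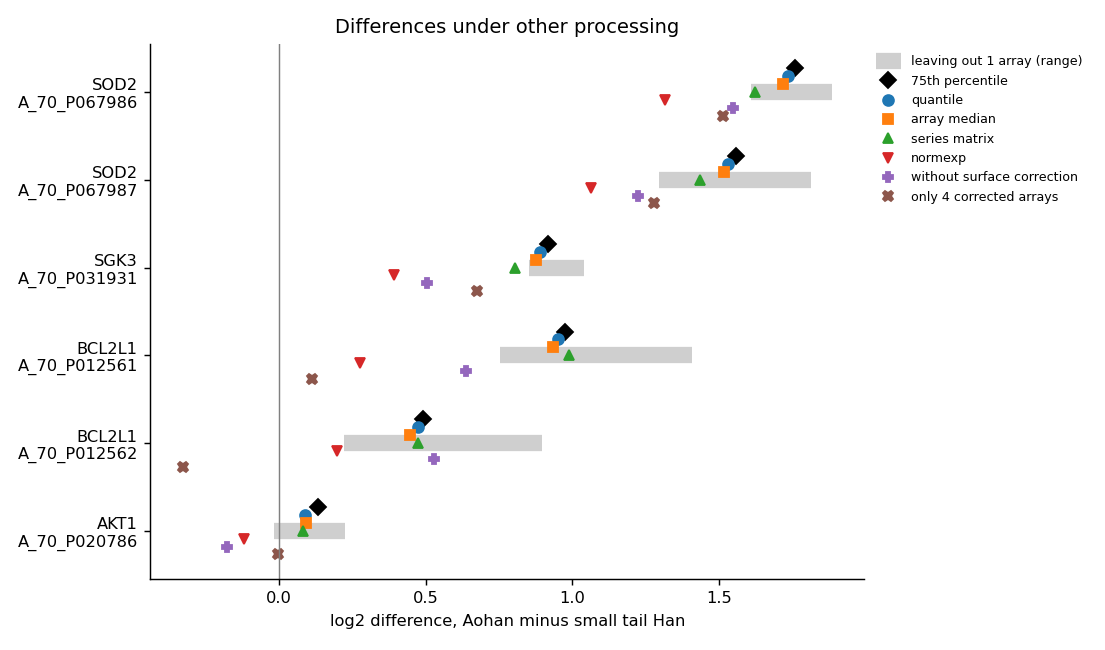
Log2 difference, Aohan minus small tail Han (horizontal axis), of the 6 probes under 7 ways of processing (symbols) and the range when 1 array is left out (grey bars). SOD2 stays at 1.06 or above at both probes, SGK3 at 0.39 or above, and AKT1 lies on both sides of 0.

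The other genes of the route were counted in 7 lists: upstream inputs and core of PI3K-AKT, substrates of AKT and SGK with mTOR, FOXO targets, the BCL2 family with caspases and death receptors, antioxidant enzymes, and the inputs and targets of NF-kB and JAK-STAT. The lists were drawn up with results of these arrays known. They hold 251 genes besides the 4, of which 53 have a RefSeq-named probe here and 46 were tested, each by its brightest tested probe. In Aohan skin 7 of the 46 (15.2%) were higher at a limma adjusted p under 0.05 and 1 (2.17%) was lower, beside 7.57% and 7.6% of all tested probes. The median difference was 0.20, against 0.02 over all tested probes, and 12 of the 46 (26.1%) had an unadjusted p under 0.05, beside 29.4% of all tested probes.

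Over all tested probes 7.57% were higher and 7.6% lower in Aohan skin. Upstream of PI3-kinase, 3 of 17 tested genes were higher in Aohan skin and none was lower. They were IL6, a cytokine of inflammation, with a log2 difference of 2.41 (SE 0.44, limma adjusted p = 0.00876), IL7, a cytokine of lymphocyte survival, with 2.27 (SE 0.63, limma adjusted p = 0.0439), and ITGB1, the integrin beta 1 subunit, with 1.72 (SE 0.38, limma adjusted p = 0.018). IL7 was well above background on 2 of 3 Aohan arrays and 1 of 3 small tail Han arrays, and IL6 on 3 of 3 Aohan and 2 of 3 small tail Han arrays, so their folds rest partly on signals near background. The next genes by p were LPAR1, a receptor for lysophosphatidic acid, at 0.49, the growth factor IGF2 at 0.68 and the cytokine CSF2 at 0.69, and they did not pass. Probes of a gene could disagree. A dimmer IGF2 probe passed at 1.12 (SE 0.21, limma adjusted p = 0.00871), a dimmer FGF2 probe at 0.93 (SE 0.22, limma adjusted p = 0.0254), and the other LPAR1 probe gave -0.52. The brighter FGF2 probe stood at 0.40 and did not pass, and the dimmer one passed in 10 of 16 alternatives.

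Downstream of the kinases the array named few genes. None of the 26 listed FOXO targets besides SOD2 had a RefSeq-named probe, so SOD2 is the one FOXO target read here. PRKAA2, a catalytic subunit of the energy sensor AMPK, was the only tested gene of 30 listed substrates and mTOR components, at 0.38 (SE 0.22). Of the cell death list, 3 genes were tested beside BCL2L1 and none passed limma, with 1 at an unadjusted p under 0.05 (29.4% of all tested probes). The death receptor FAS stood at 0.38 (SE 0.16) and the cytokine TNF at 0.54 (SE 0.24). FAS did pass in 2 of 16 alternatives, the methods' t-test and limma without the surface correction. Of the antioxidant list only TXN, the gene of thioredoxin, was tested, at -0.04 (SE 0.19). It was bright, at 5.25 in Aohan skin and 5.28 in small tail Han skin, and the superoxide-removing partners of SOD2 were not analysed here.

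NF-kB and JAK-STAT, which act on SOD2 and BCL2L1 in other systems, held the remaining calls among the tested genes. In the NF-kB list 3 of 18 tested genes were higher, namely IL6, NFKBIA and CXCL8, and 1 was lower, CXCL1. Of all tested probes 7.57% were higher and 7.6% lower. NFKBIA, the inhibitor that NF-kB itself induces, averaged 1.03 in Aohan skin and 0.17 in small tail Han skin, a difference of 0.86 (SE 0.16, limma adjusted p = 0.00969). CXCL8, a neutrophil-attracting chemokine, averaged 0.05 in Aohan skin and -2.22 in small tail Han skin, a difference of 2.27 (SE 0.19, limma adjusted p = 0.00016). Its other probe gave 4.23 (SE 0.27). That probe averaged -4.71 in small tail Han skin and was well above background on 2 of 3 arrays there, so its fold rests partly on signals near background. CXCL1, another chemokine of neutrophils, averaged -0.42 in Aohan skin and 0.36 in small tail Han skin, a difference of -0.78 (SE 0.15, limma adjusted p = 0.0118). The 2 chemokines therefore moved in opposite directions. IL1B at 0.53, TNF at 0.54 and CSF2 at 0.69 came next and did not pass.

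In the JAK-STAT list 4 of 16 tested genes were higher and none was lower: IL6, IL7, IL5 at 0.99 (SE 0.21, limma adjusted p = 0.0162) and IL10 at 0.79 (SE 0.18, limma adjusted p = 0.0222). Of all tested probes 7.57% were higher and 7.6% lower. IL6 and IL7 are also in the PI3K-AKT list, and IL6 in the NF-kB list, so the counts of the lists are not separate. IL5 acts on eosinophils and IL10 dampens inflammation. All 4 genes that passed are ligands, and the transcription factor gene STAT5A (0.07) did not pass. The other IL5 probe was well above background on no array of either breed and was not tested. A dimmer probe of the cytokine subunit gene IL12A was lower, at -1.26 (SE 0.33, limma adjusted p = 0.0344), while its brighter probe stood at 0.16. CSF2 at 0.69, IFNG at -0.42 and IL3 at 0.28 came next and did not pass.

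CXCL8 was the only 1 of these 8 genes to pass under every alternative. The other 7 did not pass the methods' t-test after adjustment. IL6 and NFKBIA also failed under normexp, and NFKBIA without the surface correction. ITGB1 did not pass when Aohan sheep 2 or 3 or small tail Han sheep 2 or 3 was left out, CXCL1 without small tail Han sheep 2 or 3, and IL10 without Aohan sheep 3 or small tail Han sheep 2. At its only tested probe IL5 passed without any single animal, and IL7 failed in 9 of 15 alternatives.

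**Figure D5:**
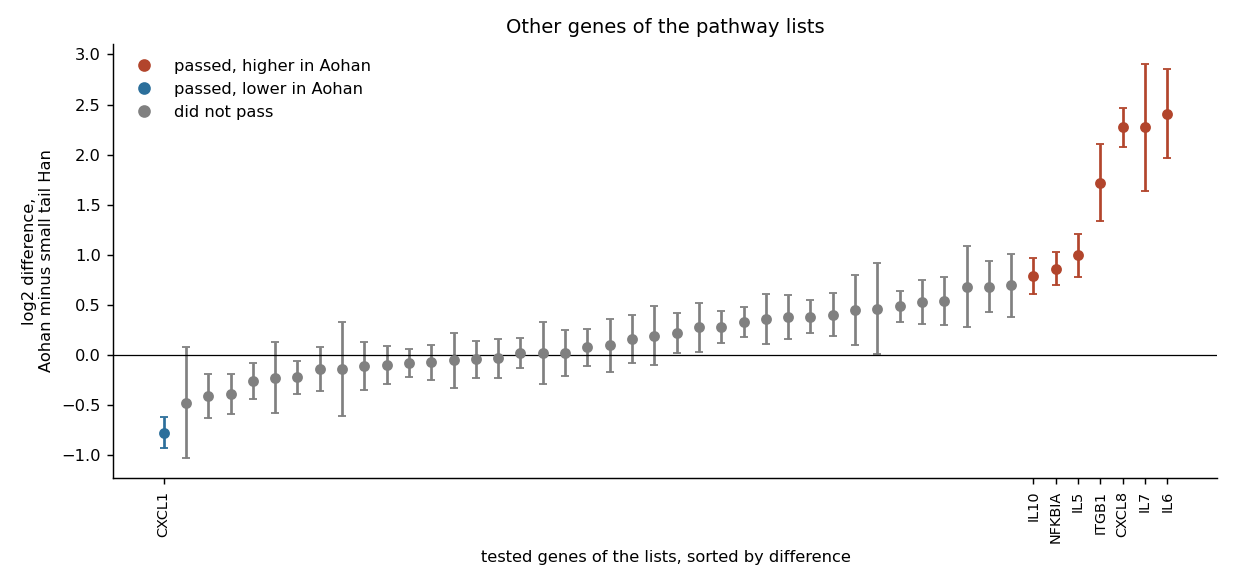
Log2 difference, Aohan minus small tail Han (vertical axis), with SE from the limma fit (bars) for the 46 tested genes of the 7 lists (horizontal axis), sorted by difference, with names under those that passed. Red genes passed higher in Aohan skin (7), the blue gene, CXCL1, passed lower, and grey genes did not pass.

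Of 8 tested myeloid and T cell markers 4 were higher in Aohan skin, as SOD2 and SGK3 were, beside 7.57% of all tested probes. Of 5 tested myeloid markers, ITGB2 at 0.95 (SE 0.18, limma adjusted p = 0.0108) and PLAUR at 1.36 (SE 0.36, limma adjusted p = 0.0364) were higher in Aohan skin, and the summed signal of the 5 was 1.33 to 1.66 times the 75th percentile in Aohan sheep, against 0.897 to 0.978 in small tail Han sheep. Of 3 tested T cell markers, CD3D at 0.92 (SE 0.24, limma adjusted p = 0.0362) and CD3E at 1.11 (SE 0.23, limma adjusted p = 0.0135) were higher, and their sum was 6.48 to 7.92 in Aohan sheep, against 2.66 to 4.82 in small tail Han sheep. The other 4 markers, CD14 at 0.19, ITGAM at 0.88, FCGR1A at 0.55 and LCK at 0.34, did not pass. Neither sum overlapped between the breeds. PLAUR was well above background on 2 of 3 Aohan and 2 of 3 small tail Han arrays, so its fold rests partly on signals near background. The myeloid sum rests mainly on ITGB2, at -0.44 in Aohan skin and -1.39 in small tail Han skin, and on CD14, at -1.20 and -1.39. The T cell sum rests mainly on CD3E and CD3D, since LCK was dim, at -2.77 in Aohan skin. Of all 12480 tested probes, 4270 had no overlap between the breeds, 2220 of them with Aohan sheep higher. Sums of other cell types were also separate, but lower in Aohan sheep. Endothelial markers (2 genes) summed to 0.145 to 0.168 in Aohan sheep and 0.196 to 0.218 in small tail Han sheep. The muscle gene TNNC2 read 0.0217 to 0.0397 in Aohan sheep and 0.0473 to 0.0713 in small tail Han sheep, and the melanocyte gene TYR 0.109 to 0.162 in Aohan sheep and 0.198 to 0.237 in small tail Han sheep. None of these genes passed at its brightest probe. A dimmer TNNC2 probe passed lower in Aohan skin, at -1.37 (SE 0.32, limma adjusted p = 0.0219). Each TNNC2 probe was well above background on 2 of 3 Aohan arrays. Of 4 tested fibroblast markers SERPINF1 was higher, at 1.26 (SE 0.24, limma adjusted p = 0.011), and their sums overlapped. The T cell markers CD4 and CD28 were not well above background on enough arrays to be tested, and neutrophil and B cell markers were not analysed here. The part of these cell types in the SOD2 and SGK3 differences was not tested.

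The named genes whose signals ran most alike with each gene were found by Pearson's r over the 6 arrays among 508 RefSeq-named probes well above background on every array. These r values include the difference between the breeds and share arrays and scan sessions, and they are a description. For SOD2 they were LOC443295 and LTF (both 0.996) and the glucose transporter gene SLC5A1 (0.994). LTF encodes lactoferrin, an iron-binding antimicrobial protein, and was itself higher by 2.64 in Aohan skin. For SGK3 they were CFL1, the gene of the actin-severing protein cofilin (0.998), LTF (0.996) and the cell cycle kinase gene CDK1 (0.993). LTF thus appeared among the closest genes of both SOD2 and SGK3.

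Taking deviations from each breed's mean, which removes the difference between the breeds, the closest genes changed. For SOD2 they were MAPKAP1 (0.993), SLCO2A1 (0.990) and a second SLC5A1 probe (0.988). MAPKAP1 encodes a subunit of the mTORC2 complex, which phosphorylates AKT and SGK kinases, and over the signals themselves its r with SOD2 was -0.21. For SGK3 they were PSMD4 (0.9995), RHOA (0.999) and CALM2 (0.999). These r values come from signals with the surface correction, and none was computed without it. At SGK3, small tail Han sheep 1 was the highest of its breed with the correction and the lowest without it. SLC5A1 was the only gene among the 3 closest to SOD2 by both measures, while LOC443295 and LTF had an r of 0.927 and 0.923 over deviations.

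BCL2L1 had a different set of close genes at each of its probes. At A_70_P012561 they were RPSA (0.985), PSMD4 (0.969) and EDN1 (0.966) over signals, and RPSA (0.969), CDK1 (0.953) and RAN (0.942) over deviations. At A_70_P012562 they were IL1A (0.994), CAPN1 (0.987) and TUBA4A (0.969) over signals, and TPM1 (0.998), ITGB1 (0.998) and IL1A (0.993) over deviations. AKT1 was closest to SLC12A4 (0.943), CD247 (0.940) and PPIE (0.916) over signals, and to ARF1 (0.976) and CD247 (0.957) over deviations.

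Among the 4 genes themselves, SOD2 and SGK3 had an r of 0.99 over signals and 0.83 over deviations. SOD2 and AKT1 had an r of 0.53 over signals and 0.95 over deviations, and SGK3 and A_70_P012562 of BCL2L1 had 0.70 and 0.99. With 6 arrays and 2 breed means removed, these r values rest on few free points. They too come from signals with the surface correction, and the order of small tail Han sheep at SGK3 changed without it.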

How the data were processed

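RNA of 6 skin samples, 3 Aohan and 3 small tail Han sheep, was measured on 1 array each. The deposited scanner files hold Cy3 intensities per spot, which the authors extracted by Agilent software (Feature Extraction version 10.5.1.1, per the file headers), with background subtraction, a surface correction on 4 arrays and no normalization between arrays. The deposited series matrix gives log2 values, normalized across arrays by the authors with a method not given in the sources used here, and all 6 columns have a median of 8.31.

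Control and outlier-marked spots were left out, spots of a probe were averaged on the log2 scale, and the 75th percentile of each array was subtracted. Probes well above background on 3 or more arrays, with 2 or more values in each breed, were fitted with limma 3.58.1 in R 4.3.3 (intensity-trended empirical Bayes, two-sided, Benjamini-Hochberg adjustment over all 12480 probes, threshold 0.05). The same fit was also run on simulated data with known changes and independent noise for each probe, without a surface effect. The p-values cover the spread between these sheep. Names came from RefSeq accessions (734 of 758 probes matched, assembly ARS-UI_Ramb_v3.0). The members and lists were chosen with earlier results of these data known.

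The genes named are the 4 members, in each list those that passed and up to 3 of smallest p that did not, and for each member the 3 of highest r by either measure. Other-probe results, marker genes and STAT5A were named after their values were seen. The results of 2 genes that the rule picks are not reported here. Alternatives were quantile normalization, the array median, normexp (offset 50; planned on mean spot signals, run on the medians that the files hold), the series matrix, other filters, no trend, the methods' t-test, a replicate block and leaving out each array. Marks of the extraction software in the deposited files served as filters. The settings without the surface correction were added after the data were seen. Figures were drawn with matplotlib 3.10.9.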

Additional observations from a re-analysis of the deposited data

How the results depend on the processing

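Normexp gave differences of 1.32 and 1.06 for the SOD2 probes, 0.39 for SGK3, 0.28 for BCL2L1 at A_70_P012561 and -0.12 for AKT1. It takes spot medians and so lacks the surface correction, and it adds an offset of 50. The part of each in these values was not tested. Settings chosen after the data were seen gave 0.50 for SGK3 and -0.18 for AKT1 without the surface correction. Over the 4 arrays that carry it they gave 0.67 for SGK3, 0.11 for BCL2L1 at A_70_P012561 and -0.33 at A_70_P012562. Leaving out single arrays gave 1.61 to 1.88 and 1.30 to 1.81 for the SOD2 probes, 0.85 to 1.04 for SGK3, 0.75 to 1.41 and 0.22 to 0.90 for the BCL2L1 probes, and -0.02 to 0.23 for AKT1. Of the 46 list genes 8 passed, against 2 by the methods' t-test, CXCL8 and FAS, and FAS is not among the 8. With an array left out 4 to 7 passed, with 5 without Aohan sheep 3 and 4 without small tail Han sheep 2. Over all probes 1893 passed, against 712 by the methods' t-test and 788 to 2248 with an array left out (1058 without Aohan sheep 3, 788 without small tail Han sheep 2 and 943 without small tail Han sheep 3). With a replicate block 1234 probes and 7 list genes passed, IL10 being lost. Deviations of same-numbered sheep had an r of -0.22, -0.37 and 0.28, with sheep number 3 alone above 0.1. Unlike-numbered sheep reached 0.47, for Aohan sheep 2 with small tail Han sheep 1. These r values cannot decide whether the replicate numbers pair the sheep. BCL2L1 signals near background limit what can be said of that gene.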
